A study of Mus musculus with 26 samples.

Results

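The genes described here were the 3 NR4A orphan nuclear receptor genes *Nr4a1*, *Nr4a2*, and *Nr4a3*, the 5 Krüppel-like factor genes *Klf2*, *Klf4*, *Klf6*, *Klf9*, and *Klf10*, and *Myc*. They were chosen by name, with earlier results of these data known, so their counts set beside shares of all genes are descriptions. Each symbol matched a single Ensembl gene, and together they are 9 of the 52962 genes in the count table. All 9 were among the 15402 genes with a level high enough to be tested. The cells were brown preadipocytes of newborn IR-lox/IGF1R-lox mice, immortalized with SV40 T-antigen, in which the genes of the insulin receptor (IR) and the IGF1 receptor (IGF1R) had been inactivated by Cre from an adenovirus (DKO cells). DKO cells were transduced with a retrovirus for human IR (B isoform, IR cells), for kinase-dead IR (K1030R cells), for IR without its C-terminal tail (∆CT cells), or for an IR that ends in the juxtamembrane region and so lacks the kinase domain (JMO cells). The paper's methods also name an empty vector, and infected cells were selected with hygromycin. The sample titles do not say whether the DKO libraries carry that vector. All cells were starved of serum for 6 h, and the 4 receptor-bearing lines were studied without and with 100 nM insulin for 15 min, whereas DKO cells were studied without insulin. Every group had 3 libraries except ∆CT with insulin, which had 2, for 26 libraries in 9 groups. Each receptor is present in 1 transduced line, so a difference between receptors and a difference between lines cannot be told apart. The labels do not say whether the dishes of a group were separate cultures, and p-values measure only the spread between these dishes.

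NR4A proteins are nuclear receptors without a known natural ligand, and their activity is set largely by how much of them is made. Krüppel-like factors bind GC-rich and CACCC sequences through zinc fingers, and MYC pairs with MAX to drive genes of ribosome production and growth. Many of these genes are transcribed within minutes of a growth factor signal without new protein synthesis, which is why they are called early-response genes. In fat cell precursors *Klf4* and *Klf9* are known as promoters of adipogenesis and *Klf2* as an inhibitor of it, and NR4A receptors are known for their induction in brown fat by adrenergic signals.

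Library totals ran from 17228982 to 24694828 counts. *Insr* reads, which can come from the human receptor where they match the mouse transcript, averaged 23.8 CPM (counts per 1000000 counts of the library) in DKO and 67.7, 71.1, 78.4, and 71.0 CPM in IR, K1030R, ∆CT, and JMO cells without insulin. *Insr* was thus higher in all 4 receptor-bearing lines. Reads of *Igf1r*, the other inactivated receptor gene, were present in DKO cells (27.1 CPM) and were higher in IR, K1030R, ∆CT, and JMO cells (35.1, 33.6, 30.3, and 30.1 CPM), by log2 0.37, 0.31, 0.16, and 0.15 (edgeR adjusted p = 4.32e-07, 2.00e-05, 0.0179, and 0.0326). By qPCR and immunoblotting the paper reports neither receptor in DKO cells. The counts here are sums over each gene, and which part of the transcripts the DKO reads came from was not tested. Replicate libraries differed by more than sampling noise, with ratios of chi-square to its degrees of freedom between 2.93 and 23.5, highest for replicates 1 and 3 of IR with insulin. Of 8 markers of brown preadipocytes and mesenchymal cells, 6 had a mean over 0.5 CPM, led by *Pdgfrb* and *Pdgfra*, and their sum ran from 798 to 894 CPM over all libraries. The other 2, *Dlk1* and *Ebf2*, were near 0. Of 5 markers of mature adipocytes and 5 of epithelial cells none reached that level, *Lep* had no counts in any library, and of 5 markers each of endothelial and muscle cells only *Pecam1* and *Des* did.

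The promoters are shown first because *Nr4a1* and *Klf2* passed the test for an insulin response and several of their relatives did not. The RefSeq table for GRCm38.p6 held an entry for 7 of the 9 genes, and *Klf10* and *Myc* had none. Start sites here are those of the RefSeq entries, which can differ from the GENCODE M21 gene bounds given further below. The *Nr4a1* window lies inside its gene bounds (chr15:101254269-101274795). The windows of *Nr4a3* and *Klf2* run past the starts of their gene bounds (48045153 and 72319033). For the 250 bases before the start site, 5 are printed 5′ to 3′ on the strand of the gene: the 3 NR4A genes, of which *Nr4a1* rose with insulin, and *Klf2*, which rose, beside *Klf4*, which did not pass. Capitals mark the half-site of the cAMP response element (TGACG, or CGTCA on the other strand), the core of the ETS site (CCGGAA), and the site of MEF2 factors, which in *Nr4a2* overlaps a TATA box (TATAAA) read on the other strand. The MEF2 site was added to the search after the sequences had been seen. The windows are chr15:101266596-101266845 (*Nr4a1*, plus strand), chr2:57124004-57124253 (*Nr4a2*, minus strand), chr4:48045055-48045304 (*Nr4a3*, plus strand), chr8:72318812-72319061 (*Klf2*, plus strand), and chr4:55532476-55532725 (*Klf4*, minus strand).
Nr4a1: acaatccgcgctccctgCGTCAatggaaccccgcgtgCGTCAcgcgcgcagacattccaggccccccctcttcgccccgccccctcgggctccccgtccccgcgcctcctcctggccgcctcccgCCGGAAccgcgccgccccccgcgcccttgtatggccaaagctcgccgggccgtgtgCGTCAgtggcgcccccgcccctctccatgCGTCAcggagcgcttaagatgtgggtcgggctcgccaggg
Nr4a2: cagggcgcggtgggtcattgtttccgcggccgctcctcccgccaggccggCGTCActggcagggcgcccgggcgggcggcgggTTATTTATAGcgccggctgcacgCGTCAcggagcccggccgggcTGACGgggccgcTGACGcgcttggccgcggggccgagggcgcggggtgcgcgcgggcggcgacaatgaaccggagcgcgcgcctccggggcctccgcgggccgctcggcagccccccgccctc
Nr4a3: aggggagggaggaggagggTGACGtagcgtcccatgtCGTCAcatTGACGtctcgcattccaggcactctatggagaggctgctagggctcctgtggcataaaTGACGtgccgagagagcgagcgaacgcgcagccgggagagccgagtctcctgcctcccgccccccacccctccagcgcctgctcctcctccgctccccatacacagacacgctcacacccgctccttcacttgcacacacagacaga
Klf2: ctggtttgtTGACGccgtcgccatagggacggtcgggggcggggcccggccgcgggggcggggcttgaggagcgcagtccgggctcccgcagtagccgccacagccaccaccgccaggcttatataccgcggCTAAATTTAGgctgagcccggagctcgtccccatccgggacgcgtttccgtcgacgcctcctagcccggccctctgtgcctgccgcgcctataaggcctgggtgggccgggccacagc
Klf4: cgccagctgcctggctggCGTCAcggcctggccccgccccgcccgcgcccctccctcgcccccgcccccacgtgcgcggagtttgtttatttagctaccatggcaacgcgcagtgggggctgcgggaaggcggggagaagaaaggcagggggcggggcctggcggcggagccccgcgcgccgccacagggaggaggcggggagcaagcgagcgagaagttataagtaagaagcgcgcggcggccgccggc

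All 3 NR4A windows held 4 half-sites each, whereas 0.137% of 32851 RefSeq promoter windows of the same length held 4 or more and 17.8% held at least 1. In *Nr4a1* they lay 233, 213, 69, and 40 bases before the RefSeq start, in *Nr4a2* 200, 144, 123, and 111, and in *Nr4a3* 231, 213, 205, and 147. *Klf2*, *Klf4*, and *Klf9* held 1 half-site each and *Klf6* held none. The full element (TGACGTCA) and the CArG box, the site of serum response factor, were in none of the 7 windows, against 1.55% and 1.47% of all windows. An ETS core was seen in *Nr4a1*, 125 bases before the start, and is found in 12.0% of windows. MEF2 sites were seen in *Klf2*, 118 bases before the start, and in *Nr4a2*, at 167 bases, and in 2.92% of windows. GC boxes (GGGCGG), which are not capitalized, numbered 3 in *Nr4a1*, 4 in *Nr4a2*, 1 in *Nr4a3*, 2 in *Klf2*, 4 in *Klf4*, 1 in *Klf6*, and 0 in *Klf9*. At least 1 is in 32.7% of windows and 4 or more in 4.09%. The 7 windows held from 59.6% (*Klf9*) to 80.0% (*Nr4a2*) G and C. The windows they are compared with were not matched for this content, which limits all these shares. These are matches of letters in short windows and were not tested for binding.

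The first question was which of the genes responded to insulin through each receptor. In IR cells 4 of the 9 genes rose, *Nr4a1*, *Klf2*, *Klf6*, and *Myc*, against 1.4% of all tested genes higher (edgeR's quasi-likelihood test, Benjamini-Hochberg adjusted p below 0.05). The number of all genes called in IR cells in either direction, 288, depended on single libraries and ran from 131 without IR replicate 2 to 1053 without IR replicate 3, and these 4 genes passed in each of those fits. In ∆CT cells *Nr4a1*, *Klf2*, *Klf6*, and *Myc* rose, 4 of 9 against 0.935%. In JMO cells *Klf2* and *Klf6* rose, 2 of 9 against 0.331%, and in K1030R cells none of the 9 passed the test, against 0.11% of all genes. None of the 9 was significantly lower in any of the 4 lines, in which 0.474%, 0.0714%, 0.0325%, and 0.0454% of all genes were. In K1030R cells 24 genes passed in either direction (0.156%), 937 genes had an unadjusted p below 0.05, and *Klf4*, *Klf6*, and *Myc* had 95% intervals above 0. With no filter on low counts 178 genes passed in K1030R cells, among them *Myc* (log2 0.26, edgeR adjusted p = 0.000724) and *Klf10* (log2 -0.33, edgeR adjusted p = 7.18e-18), and the cause was not tested. When a minimum of 1.5-fold was tested, *Nr4a1* and *Klf2* passed in IR and in ∆CT cells, where 0.214% of genes were higher in each, and none of the 9 passed in JMO or K1030R cells, where 0.039% and 0% were. Whether libraries with and without insulin overlapped is described below for single genes. The share of all genes without such overlap was not counted, so separation alone does not show a response.

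**Figure D1:**
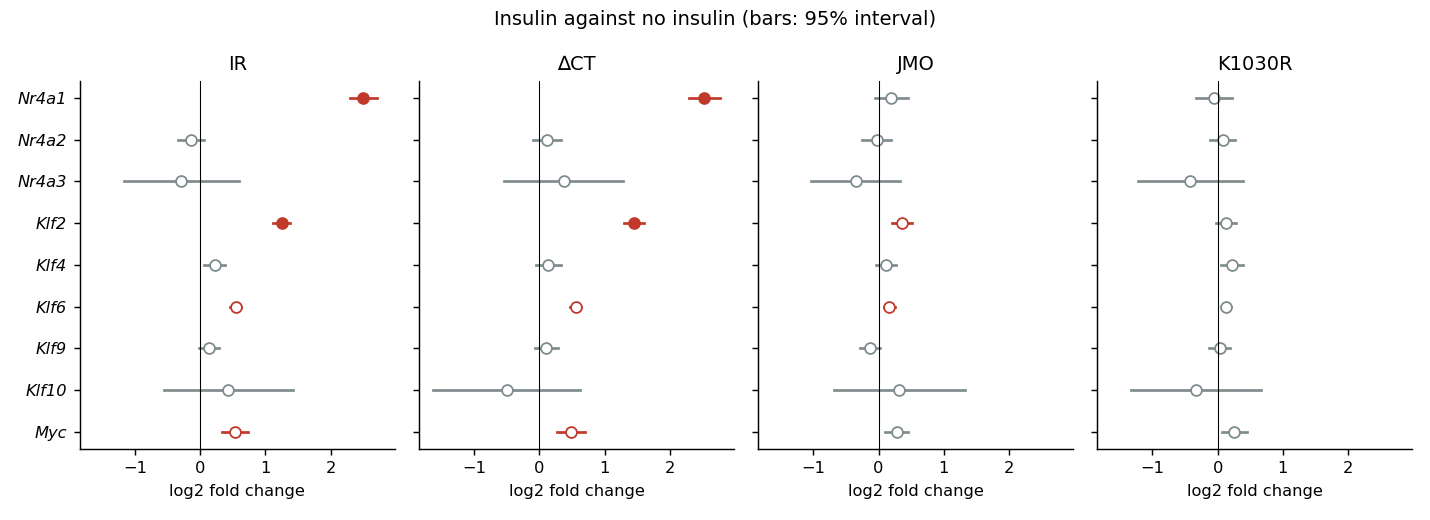
Fitted log2 fold change with insulin against no insulin (x axis) for each of the 9 genes (y axis) in IR, ∆CT, JMO, and K1030R cells, with 95% intervals as bars. Red marks an adjusted p below 0.05, and filled points also passed the test for a minimum of 1.5-fold, which were *Nr4a1* and *Klf2* in IR and ∆CT cells.

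*Nr4a1* (ENSMUSG00000023034, GRCm38 chr15:101254269-101274795), whose product is also called NUR77, had the largest insulin response of the 9 genes in IR and ∆CT cells. In IR cells it had 7.3, 5.59, and 6.57 CPM without insulin and 36.5, 37.3, and 37.2 CPM with insulin. In ∆CT cells the 3 libraries without insulin had 4.79, 3.9, and 4.61 CPM and the 2 with insulin had 26.8 and 24.5. Thus every insulin library of these lines was far above every basal library. The increase was 5.66-fold in IR (log2 2.50, SE 0.10, edgeR adjusted p = 4.37e-20) and 5.78-fold in ∆CT cells (log2 2.53, SE 0.12, edgeR adjusted p = 3.04e-18). In JMO cells the values were 4.88, 4.69, and 5.4 CPM without and 6.68, 5.56, and 4.78 CPM with insulin, and in K1030R cells 5.39, 4.73, and 3.62 against 4.22, 4.49, and 4.44. Both sets overlapped, and the log2 changes were 0.20 (95% interval -0.06 to 0.45) in JMO and -0.06 (-0.33 to 0.22) in K1030R cells.

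The other two NR4A genes did not pass the test with insulin in any line. *Nr4a2* (ENSMUSG00000026826, chr2:57106830-57124003), known for its role in dopamine neurons, had 8.54, 8.04, and 8.4 CPM in IR cells without insulin and 7.84, 7.72, and 7.11 CPM with it. The insulin libraries were all lower, but the log2 change of -0.14 (SE 0.10) did not pass (edgeR adjusted p = 0.531). Its 95% interval, -0.34 to 0.05, does not reach the interval of *Nr4a1* in the same dishes, 2.30 to 2.70. In ∆CT cells *Nr4a2* had 7.21, 7.34, and 6.88 CPM without and 7.13 and 8.34 CPM with insulin, and its log2 change was 0.12 (-0.10 to 0.34). *Nr4a3* (ENSMUSG00000028341, chr4:48045153-48086447) was at the edge of detection, with group means from 0.437 to 1.15 CPM. In IR cells it had 9.73, 7.01, and 15.5 counts without and 7.64, 5.51, and 13.1 counts with insulin. The interval of its change in IR cells, log2 -1.17 to 0.59, shows how little can be said at this depth.

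Among the Krüppel-like factors, *Klf2* (ENSMUSG00000055148, chr8:72319033-72321656), best known for keeping endothelial cells and T cells quiescent, responded most. It had 17.2, 16.2, and 14.4 CPM in IR cells without insulin and 39.2, 38.8, and 36.1 CPM with insulin, a 2.38-fold increase (log2 1.25, SE 0.06, edgeR adjusted p = 9.51e-17). In ∆CT cells 13.4, 13.9, and 12.7 CPM became 36.1 and 36.9 CPM, a 2.73-fold increase (log2 1.45, SE 0.07, edgeR adjusted p = 4.07e-17). Insulin libraries stood clear of basal libraries in both lines. In JMO cells the libraries were also separate but much closer, with 13.1, 13.8, and 12.8 CPM without and 17.6, 16.5, and 16.6 CPM with insulin, a 1.28-fold difference (log2 0.36, SE 0.07, edgeR adjusted p = 0.0107). This call was lost without JMO replicate 1, JMO replicate 3, or the first JMO library with insulin (log2 0.35, 0.34, and 0.33, edgeR adjusted p = 0.0723, 0.0641, and 0.13). In K1030R cells 11.8, 14.6, and 12.5 CPM stood beside 13.9, 14.8, and 13.8 CPM, with overlap.

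*Klf6* (ENSMUSG00000000078, chr13:5861482-5870394), a growth-restraining factor of wide expression, rose by a smaller fold with little spread. In IR cells it went from 139, 144, and 139 CPM to 205, 201, and 209 CPM (log2 0.54, SE 0.04, edgeR adjusted p = 6.92e-13), and in ∆CT cells from 135, 140, and 125 CPM to 196 and 197 CPM (log2 0.56, SE 0.04, edgeR adjusted p = 5.29e-12). These are 1.46-fold and 1.47-fold. In JMO cells 130, 133, and 121 CPM became 144, 143, and 144 CPM, which is 1.12-fold (log2 0.17, SE 0.04, edgeR adjusted p = 0.039). That small difference passed in 5 of 13 alternative fits without a minimum fold: it was lost without JMO replicate 1 or 3 or any of the 3 insulin libraries (edgeR adjusted p from 0.101 to 0.334) and with RLE scaling, another count filter, and limma voom. In K1030R cells 146, 137, and 144 CPM stood beside 151, 164, and 152 CPM, without overlap, and the log2 change of 0.13 (0.05 to 0.21) did not pass (edgeR adjusted p = 0.304).

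*Klf4* and *Klf9* showed no insulin response that passed the test. *Klf4* (ENSMUSG00000003032, chr4:55527143-55532466), one of the reprogramming factors, had 13.8, 13.7, and 13.2 CPM in IR cells without and 14.6, 15.9, and 17.2 CPM with insulin. All insulin libraries were above the basal ones, and the log2 change was 0.23 (0.06 to 0.39, edgeR adjusted p = 0.143). Its libraries with insulin were also all higher in ∆CT and in K1030R cells, with log2 0.13 (-0.06 to 0.33) and 0.22 (0.05 to 0.39). Neither change passed (edgeR adjusted p = 0.694 and 0.62). *Klf9* (ENSMUSG00000033863, chr19:23141226-23168134), a gene known to respond to glucocorticoid and thyroid hormones, had 17.1, 18.1, and 19.1 CPM in IR cells without and 21.4, 17.5, and 20.7 CPM with insulin. These overlap, with log2 0.13 (-0.02 to 0.29), and in JMO cells, where the insulin libraries were all lower, the value was -0.13 (-0.28 to 0.02).

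*Myc* (ENSMUSG00000022346, chr15:61985391-61990374) rose in IR cells from 25.7, 23.2, and 22.1 CPM to 34, 36.1, and 32.7 CPM, which is 1.44-fold (log2 0.53, SE 0.10, edgeR adjusted p = 0.00365). In ∆CT cells 32.7, 33.8, and 25 CPM became 44.2 and 41.1 CPM, which is 1.40-fold (log2 0.48, SE 0.10, edgeR adjusted p = 0.0169). The ∆CT call was lost without the first or the second insulin library (edgeR adjusted p = 0.252 and 0.0717) and when only those 2 groups were fitted (adjusted p = 0.431). Insulin libraries were above all basal libraries in JMO cells too, 68.3, 57.6, and 59.4 CPM against 51.8, 51.9, and 49.2 CPM, and in K1030R cells, 43, 42.7, and 40.6 CPM against 39.6, 33.8, and 32.5 CPM. The log2 changes there were 0.28 (0.10 to 0.45, edgeR adjusted p = 0.281) and 0.26 (0.07 to 0.45, edgeR adjusted p = 0.611). The JMO value passed when only those 2 groups were fitted (edgeR adjusted p = 0.0413) and with no filter on low counts (2.50e-05), and the K1030R value with no filter (0.000724). The fit with no filter also passed *Klf10* with insulin in every line, although its libraries with and without insulin overlapped in each. The cause was not tested.

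**Figure D2:**
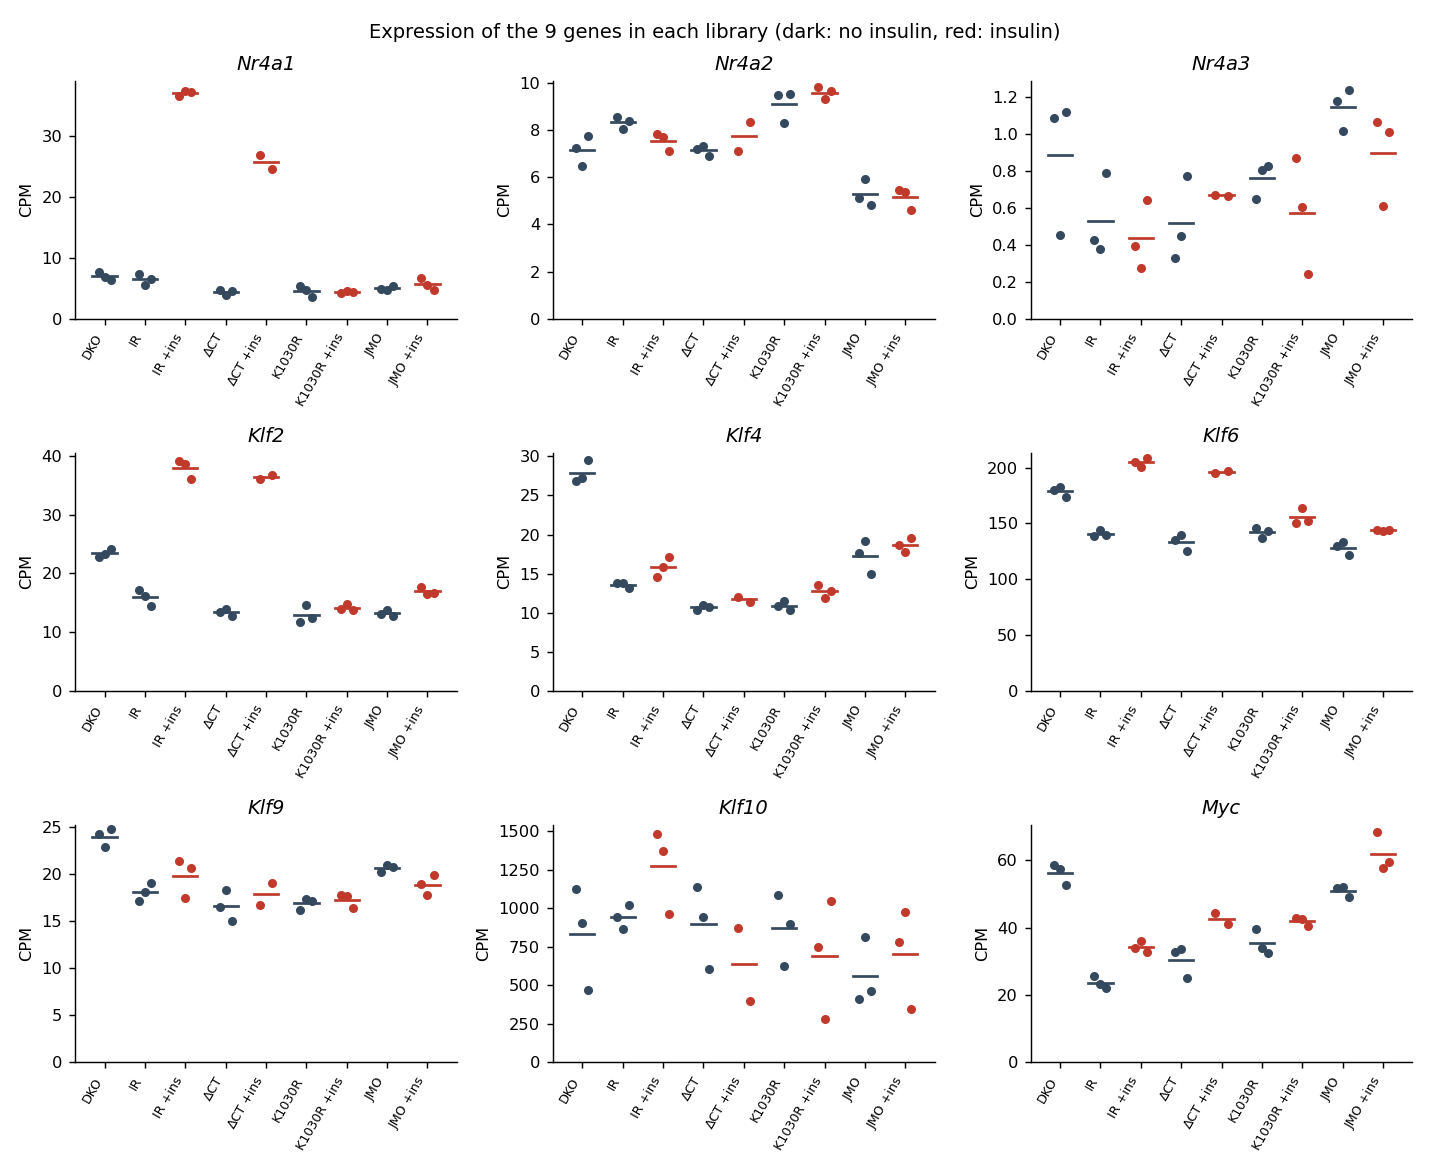
CPM (y axis, from 0) of each of the 9 genes in each of the 26 libraries, by group (x axis), with dark points for libraries without insulin, red points for libraries with insulin, and a line at the group mean. *Nr4a1* and *Klf2* with insulin stand apart in IR and ∆CT cells, *Klf4* is highest in DKO, *Myc* is lowest in IR cells without insulin, and the *Klf10* libraries of a group lie far apart.

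Whether the response differed between receptors was tested as a difference of insulin effects. Relative to IR cells, the insulin effect in K1030R cells was smaller by log2 2.56 for *Nr4a1* (difference -2.56, SE 0.17, edgeR adjusted p = 3.69e-13), 1.13 for *Klf2* (-1.13, SE 0.10, edgeR adjusted p = 6.52e-10), and 0.41 for *Klf6* (-0.41, SE 0.05, edgeR adjusted p = 5.81e-06). These were 3 of 9, against 0.37% of all genes. In JMO relative to IR cells the differences were -2.30 for *Nr4a1* (SE 0.16, edgeR adjusted p = 1.86e-12), -0.89 for *Klf2* (SE 0.10, edgeR adjusted p = 1.12e-07), and -0.37 for *Klf6* (SE 0.05, edgeR adjusted p = 4.46e-05), again 3 of 9, against 0.279%. Both comparisons share the IR libraries. For *Myc* the differences of -0.27 (-0.55 to 0.01) and -0.25 (-0.52 to 0.02) did not pass, so that a smaller *Myc* response in K1030R or JMO than in IR cells was not shown. Between ∆CT and IR cells none of the 9 passed, against 0.00649% of all genes (1 gene by edgeR, with 565 at an unadjusted p below 0.05), and the difference was 0.03 for *Nr4a1* (-0.29 to 0.35), 0.20 for *Klf2* (-0.0019 to 0.40), and 0.02 for *Klf6* (-0.10 to 0.13). Between JMO and K1030R cells none passed either, against 0.026% (4 genes, with 571 at an unadjusted p below 0.05), and the *Klf2* difference was 0.23 (0.02 to 0.45, edgeR adjusted p of 1).

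The second question was how the level without insulin depended on the receptor. These comparisons share the DKO libraries, and in them large parts of all genes differed. The summed level of 5 macrophage and blood markers also ran higher in DKO (14.3 to 16.8 CPM) and JMO cells (12.7 to 14.9 CPM) than in IR, K1030R, and ∆CT cells (7.53 to 9.75 CPM). Of these markers *Adgre1* had no counts in any library and *Ptprc* reached at most 0.397 CPM. *Lyz2*, *Cd68*, and *Csf1r* had counts in every library, with means of 7.51, 2.45, and 0.623 CPM. The part of such cells in the levels that follow was not tested. In RNA from whole dishes, a change in every cell and a change in some of the cells cannot be told apart. In IR cells 5 of the 9 genes were lower than in DKO (*Klf2*, *Klf4*, *Klf6*, *Klf9*, and *Myc*), against 24.1% of all tested genes. In K1030R and in ∆CT cells 6 were lower, these 5 and *Nr4a1*, against 20.4% and 22.9%, and in K1030R cells *Nr4a2* was higher, against 21.2%. In JMO cells 6 were lower (*Nr4a1*, *Nr4a2*, *Klf2*, *Klf4*, *Klf6*, and *Klf9*), against 17.4%. With a minimum of 1.5-fold, *Klf4* and *Myc* passed in IR, *Klf2* and *Klf4* in K1030R, *Klf2*, *Klf4*, and *Myc* in ∆CT, and *Klf2* in JMO cells, against 3.29%, 3.25%, 3.91%, and 0.734% of all genes lower.

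**Figure D3:**
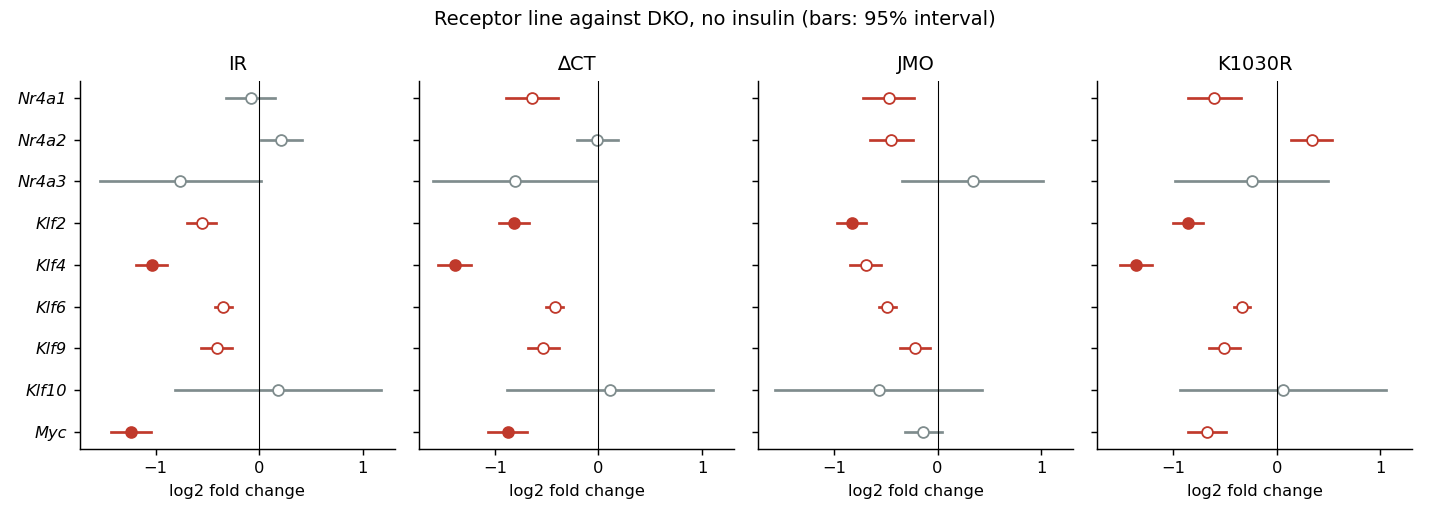
Fitted log2 fold change of each receptor-bearing line against DKO cells (x axis), both without insulin, for the 9 genes (y axis), with 95% intervals as bars. Red marks an adjusted p below 0.05 and filled points also a minimum of 1.5-fold, and *Klf2*, *Klf4*, *Klf6*, and *Klf9* lie below 0 in all 4 lines.

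*Klf4* was lower than in DKO cells in all 4 lines, and in K1030R and ∆CT cells its difference was the largest of the 9 genes. Its 3 DKO libraries had 26.8, 27.3, and 29.5 CPM, against 13.8, 13.7, and 13.2 CPM in IR, 10.8, 11.5, and 10.3 CPM in K1030R, 10.3, 11, and 10.7 CPM in ∆CT, and 17.7, 19.2, and 14.9 CPM in JMO cells. No library of a receptor-bearing line reached the DKO range. The log2 difference was -1.04 for IR, -1.36 for K1030R, -1.39 for ∆CT, and -0.69 for JMO, with SE from 0.07 to 0.08 and edgeR adjusted p of 1.79e-09 or smaller. In rising order of level, ∆CT and K1030R did not differ beyond their spread (edgeR adjusted p = 0.916), whereas K1030R was below IR (0.00352), IR below JMO (0.000458), and JMO below DKO cells. ∆CT was also below IR (difference -0.35, edgeR adjusted p = 0.00159).

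*Klf2* had 22.8, 23.4, and 24.2 CPM in DKO cells, and every library without insulin in the other lines was lower. Against DKO the log2 values were -0.56 (IR), -0.85 (K1030R), -0.81 (∆CT), and -0.83 (JMO) (SE 0.07 in each, edgeR adjusted p of 1.68e-08 or smaller). With insulin, IR and ∆CT cells (36.1 to 39.2 CPM) lay above the DKO libraries, and JMO and K1030R cells with insulin (13.8 to 17.6 CPM) below them. Without insulin K1030R, JMO, and ∆CT cells, with means of 13.0, 13.2, and 13.3 CPM, did not differ beyond their spread, and IR cells at 15.9 CPM were above ∆CT (edgeR adjusted p = 0.00743). That last call was lost without IR replicate 1 and when only those 2 groups were fitted (edgeR adjusted p = 0.0788 and 0.0692). K1030R and JMO cells were below IR by log2 0.30 and 0.27 (differences -0.30 and -0.27, edgeR adjusted p = 0.00207 and 0.00239).

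*Klf6* had 180, 183, and 174 CPM in DKO cells and group means of 141, 142, 133, and 128 CPM in IR, K1030R, ∆CT, and JMO cells. The differences from DKO were small with little spread, from log2 -0.33 in K1030R to -0.48 in JMO cells (SE 0.04, edgeR adjusted p of 8.58e-09 or smaller). JMO, ∆CT, IR, and K1030R cells, in rising order, did not differ between neighbours. JMO was below IR cells by log2 0.14 (difference -0.14, edgeR adjusted p = 0.00412), a call lost without JMO replicate 3 (-0.10, edgeR adjusted p = 0.0585). It was also below K1030R cells (difference -0.15, SE 0.04, edgeR adjusted p = 0.00235).

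*Klf9* had 24.2, 22.8, and 24.8 CPM in DKO cells and 15.0 to 19.1 CPM in the 9 libraries of IR, K1030R, and ∆CT cells. Its log2 differences from DKO there were -0.41, -0.50, and -0.53 (SE 0.07, edgeR adjusted p of 1.40e-05 or smaller). JMO cells had 20.3, 21, and 20.8 CPM, between the DKO libraries and those of the other 3 lines. JMO was 0.21 below DKO on the log2 scale (difference -0.21, edgeR adjusted p = 0.0178), lost without JMO replicate 1 or DKO replicate 1 or 3 (edgeR adjusted p = 0.0657, 0.0518, and 0.0853). It was 0.19 above IR (edgeR adjusted p = 0.0313), lost without IR replicate 1 or 2 or JMO replicate 2 or 3 (edgeR adjusted p from 0.0643 to 0.15), with DESeq2 (adjusted p = 0.0609), and with no filter on low counts (0.066), and above K1030R and ∆CT by 0.29 and 0.31 (edgeR adjusted p = 0.00245 and 0.000872).

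*Nr4a1* without insulin fell into higher and lower lines. DKO cells had 7.66, 6.88, and 6.33 CPM and IR cells a mean of 6.49 CPM, which did not differ (log2 -0.08, -0.32 to 0.16). K1030R, ∆CT, and JMO cells had means of 4.58, 4.43, and 4.99 CPM, all their libraries were below the DKO libraries, and the log2 differences from DKO were -0.60, -0.64, and -0.47 (SE 0.12 to 0.13, edgeR adjusted p = 0.000192, 6.37e-05, and 0.00253). Against IR cells they were -0.52, -0.56, and -0.39 (edgeR adjusted p = 0.00174, 0.0009, and 0.0098), of which the JMO value was lost without IR replicate 1 (-0.29, edgeR adjusted p = 0.0957). K1030R, ∆CT, and JMO cells did not differ from each other beyond their spread.

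*Nr4a2* followed another order. JMO cells were lowest with 5.12, 5.92, and 4.81 CPM, below all libraries of the other lines. ∆CT cells had a mean of 7.14, DKO of 7.16, IR of 8.33, and K1030R of 9.10 CPM. JMO was below DKO by log2 0.45 (difference -0.45, edgeR adjusted p = 0.000725), and its differences from IR, K1030R, and ∆CT were -0.66, -0.78, and -0.44 (edgeR adjusted p of 0.000756 or smaller). K1030R was above DKO by 0.34 (edgeR adjusted p = 0.00495), and IR by 0.21 (edgeR adjusted p = 0.0681), which passed without DKO replicate 3 (0.28, edgeR adjusted p = 0.0376). ∆CT was below K1030R by 0.35 (difference -0.35, edgeR adjusted p = 0.0373), the single call of the 9 genes between these lines, where 3.43% of all genes differed, and it was lost without any 1 of the ∆CT libraries or without K1030R replicate 1 or 3 (edgeR adjusted p from 0.0577 to 0.171), with no filter on low counts (0.0972), with only those 2 groups (0.178), and with DESeq2 (0.126). *Nr4a3* was highest in JMO cells, with 1.18, 1.02, and 1.24 CPM, which is 20.3 to 28.8 counts a library. Its level was 2.14-fold that of IR (log2 1.10, SE 0.37, edgeR adjusted p = 0.0145) and 2.22-fold that of ∆CT cells (log2 1.15, SE 0.37, edgeR adjusted p = 0.013), and these calls were lost without IR replicate 1 or 2 (edgeR adjusted p = 0.0727 and 0.0685) and without ∆CT replicate 1 (0.0855). The DKO libraries had 1.09, 0.455, and 1.12 CPM, and no line passed the test against them, with log2 values of -0.76 (IR), -0.24 (K1030R), -0.81 (∆CT), and 0.34 (JMO). Without DKO replicate 2 the IR and ∆CT values were -1.05 and -1.09 and passed (edgeR adjusted p = 0.0247 and 0.0218), as did IR without its replicate 3 (-1.15, edgeR adjusted p = 0.0312) and ∆CT without its replicate 3 (-1.21, edgeR adjusted p = 0.0269).

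Of the 9 genes, *Myc* had the largest difference between IR and DKO cells without insulin. DKO cells had 58.7, 57.5, and 52.6 CPM and IR cells 25.7, 23.2, and 22.1 CPM, so that *Myc* in IR cells was 0.423 times the DKO level (log2 -1.24, SE 0.09, edgeR adjusted p = 2.23e-10). K1030R (39.6, 33.8, and 32.5 CPM) and ∆CT cells (32.7, 33.8, and 25 CPM) lay between, with log2 differences from DKO of -0.67 and -0.88 (SE 0.09, edgeR adjusted p = 2.17e-06 and 4.08e-08). JMO cells, with 51.8, 51.9, and 49.2 CPM, lay just below the DKO libraries (log2 -0.14, -0.31 to 0.04, edgeR adjusted p = 0.232). That difference passed when only those 2 groups were fitted (edgeR adjusted p = 0.0204) and with no filter on low counts (0.0288). The fit with no filter also passed *Klf10* between JMO and DKO cells, although its libraries overlapped, and the cause was not tested. JMO exceeded IR cells 2.15-fold (log2 1.10, SE 0.09, edgeR adjusted p = 2.22e-09) and also K1030R and ∆CT by log2 0.53 and 0.74. In rising order IR was below ∆CT (0.36, edgeR adjusted p = 0.00881, lost without ∆CT replicate 1 or 2, edgeR adjusted p = 0.0539 and 0.0669), ∆CT and K1030R did not differ beyond their spread (edgeR adjusted p = 0.302), and K1030R was below JMO (edgeR adjusted p = 5.84e-05). Even with insulin, IR cells (32.7 to 36.1 CPM) stayed below every DKO library.

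Counting over the 9 genes, 4 differed between K1030R and IR cells and 4 between ∆CT and IR cells (30.2% and 26.1% of all genes), in both cases *Nr4a1*, *Klf2*, *Klf4*, and *Myc*. Between JMO and IR cells 8 differed, all but *Klf10* (42.4%). Between JMO and K1030R cells 5 differed, *Nr4a2*, *Klf4*, *Klf6*, *Klf9*, and *Myc* (35.4%), and between JMO and ∆CT cells 5, *Nr4a2*, *Nr4a3*, *Klf4*, *Klf9*, and *Myc* (38.8%). Of all these differences, *Myc* in JMO against IR cells also passed at a minimum of 1.5-fold, against 2.65% of all genes higher.

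A list of 16 genes of growth that MYC is known to drive, in nucleolar assembly, polyamine synthesis, nucleotide synthesis, and glycolysis, was set beside *Myc*. With insulin none of the 16 passed the test in any line, and their median log2 changes were 0.02 in IR, -0.04 in ∆CT, -0.04 in JMO, and 0.07 in K1030R cells. Without insulin, 13 were lower and 1 was higher in IR than in DKO cells (24.1% and 25.6% of all genes), with a median log2 difference of -0.39 against 0.01 over all genes. Those with the largest differences were *Ddx21*, an RNA helicase of the nucleolus (-1.06), *Odc1*, the first enzyme of polyamine synthesis (-0.70), *Nop56*, a box C/D ribonucleoprotein (-0.63), and *Srm*, spermidine synthase (-0.59). In K1030R, ∆CT, and JMO against DKO cells the medians were -0.03, -0.02, and -0.02, with 1, 4, and 4 of the 16 lower (20.4%, 22.9%, and 17.4% of all genes) and 2, 2, and 3 higher (21.2%, 23.4%, and 16.9%). Against IR cells 15, 14, and 13 were higher in K1030R, ∆CT, and JMO cells, against 13.9%, 11.2%, and 20.7% of all genes, with medians of 0.37, 0.36, and 0.33. These 3 comparisons share the IR libraries with each other and with the comparison to DKO. *Tfrc*, the transferrin receptor, was above IR by log2 1.02, 1.03, and 1.37 in the 3 lines. In these lines *Tfrc* was also above DKO, by 0.89, 0.91, and 1.25, and in IR cells it did not differ from DKO (-0.13, edgeR adjusted p = 0.445). *Cdk4* went the other way, above DKO in IR cells (0.14) and below IR in the 3 lines (differences -0.19, -0.09, and -0.40). *Myc* itself and the median of the list were thus both lowest in IR cells, whereas in K1030R and ∆CT cells *Myc* was below DKO and the median of the list was near 0.

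**Figure D4:**
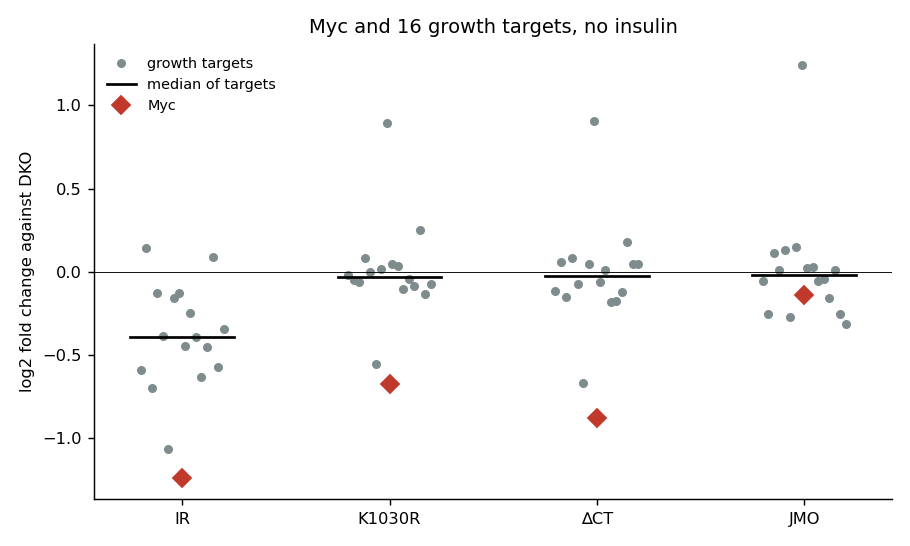
Fitted log2 fold change against DKO cells without insulin (y axis) of *Myc* (red diamonds) and of 16 known growth targets of MYC (grey points, with a line at their median) in the 4 receptor-bearing lines (x axis). In IR cells both lie below 0, with *Myc* at -1.24 and the median at -0.39, and in the other 3 lines the median lies close to 0 and *Myc* runs from -0.88 to -0.14.

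*Klf10* (ENSMUSG00000037465, chr15:38291463-38300706), known as a TGF-beta-inducible early gene, gave no difference that passed the test in any comparison, and its libraries scattered as no other well-expressed member did. In IR cells it had 941, 865, and 1020 CPM without and 1481, 1370, and 962 CPM with insulin. In K1030R cells with insulin it had 747, 282, and 1043 CPM, a wider range than that of the 9 group means. The log2 change with insulin in IR cells was 0.43, with an interval of -0.56 to 1.42. With no filter on low counts this same change passed (log2 0.43, edgeR adjusted p = 1.57e-31), as did *Klf10* with insulin in the other 3 lines and in IR, ∆CT, and JMO against DKO cells, and the cause was not tested. The median CV within groups was 38.8%, against a median of 2.46% over the 2367 genes with a mean of at least 100 CPM. Among those 2367 genes, *AA465934* was the single other gene with a CV as high.

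The genes whose levels followed *Klf10* most closely over the 26 libraries were *Olfr907*, an olfactory receptor gene (r = 0.986), *5830416I19Rik* (r = 0.982), and *AA465934* (r = 0.981). Within groups, after removal of group means, the values were 0.984, 0.989, and 0.982. In the GENCODE M21 transcripts, a *Klf10* transcript of 326 bases holds an unbroken run of 33 A, and no transcript of the other 8 genes holds a run over 16 of 1 base. A run of at least 31 A or T was present in 19 of the 20 genes most like *Klf10*, against 0.812% of the 13056 tested genes with a mean of at least 1 CPM. The 106 genes with such a run had a median within-group correlation of 0.326 with *Klf10*, and the 12950 genes without it -0.00339. These points share libraries and depth, and the part of reads in such runs in the *Klf10* counts was not tested. *Pecam1*, counted among the endothelial markers, also holds a run and had r = 0.880 with *Klf10*.

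**Figure D5:**
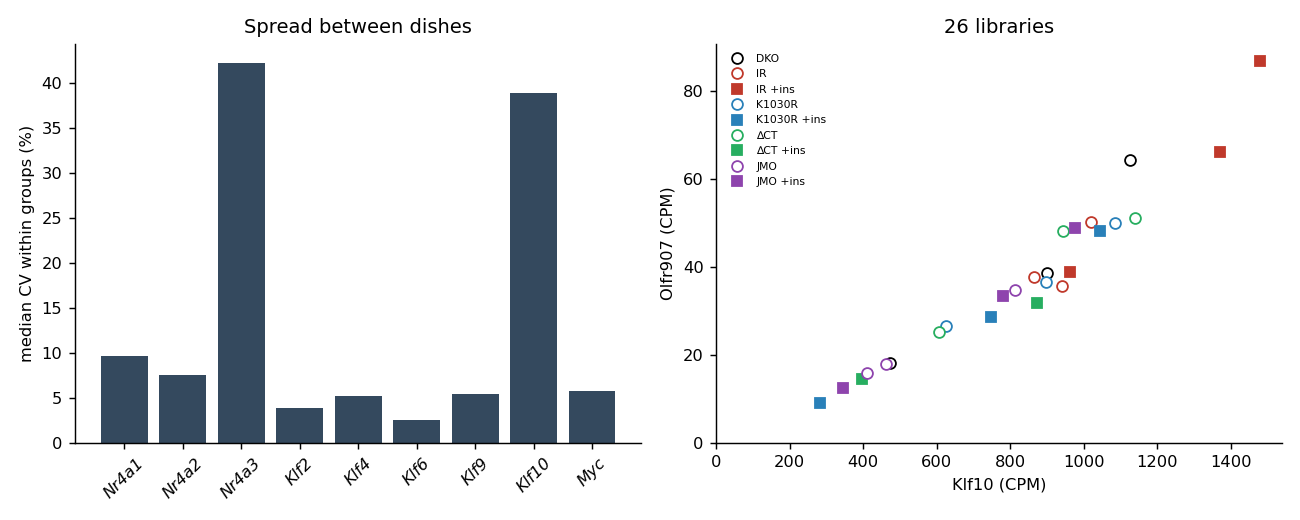
Left, median CV within the 9 groups (y axis, percent, from 0) of each of the 9 genes. Right, CPM of *Klf10* (x axis) and *Olfr907* (y axis) in the 26 libraries, by line (colour) and insulin (filled squares). *Klf10* has a CV of 38.8%, near the 42.2% of the barely detected *Nr4a3*, and its libraries follow those of *Olfr907* (r = 0.986) across lines and treatments.

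Sequence words of 31 bases shared with other genes, which bear on how reads are divided between genes, were absent from *Nr4a1*, *Klf2*, *Klf6*, *Klf9*, and *Myc*. *Nr4a2* shared 11 of 4098 words, *Nr4a3* 28 of 5978, *Klf4* 61 of 3047, and *Klf10* 13 of 4143. The other genes that held such words numbered 2700 for *Nr4a2*, 203 for *Nr4a3*, 3 for *Klf4*, and 210 for *Klf10*.

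Among the other genes, those most like a member over the 26 libraries were described by Pearson's r of log2 CPM over 12752 genes, in points that share groups and depth. For *Nr4a1* they were *Ddit3*, a transcription factor of the stress response (r = 0.965), and *Zfp36*, an mRNA decay factor (r = 0.960). For *Klf2* they were *Rhob*, a small GTPase (r = 0.934), and *Egr3* (r = 0.920), and for *Klf6* *Rhob* (r = 0.955) and *Hes1* (r = 0.883). *Rhob* rose with insulin by log2 0.84 in IR and 1.01 in ∆CT cells and by 0.29 in JMO cells (edgeR adjusted p = 0.00838). For *Myc* they were *Sgk1*, a kinase regulated by serum and glucocorticoids (r = 0.982), and *Fosl1*, an AP-1 subunit (r = 0.957). *Sgk1* was lower than in DKO by log2 -1.91, -1.28, -1.52, and -0.35 (IR, K1030R, ∆CT, JMO), and *Fosl1* by -2.45, -1.27, -1.60, and -0.47. For *Klf4* they were *Ston2* (r = 0.951) and *Trim30d* (r = 0.948), for *Klf9* *Map3k2* (r = 0.904) and *Ascc3* (r = 0.898), for *Nr4a2* *Tubb5* (r = 0.926) and *Ebp* (r = 0.919), and for *Nr4a3* *Rfwd3* (r = 0.752) and *Gnptab* (r = 0.716). Between members the closest pairs were *Nr4a1* and *Klf2* (r = 0.936), *Klf2* and *Klf6* (r = 0.923), and *Klf4* and *Klf9* (r = 0.846).

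Genes around the members gave the following counts. Of 12 other Krüppel-like factor genes 9 were tested, and none passed with insulin in any of the 4 lines. The same held for the 9 tested of 12 genes of the MYC and MAX network and for the 2 tested of 3 RXR genes, partners of some NR4A receptors. Of 17 upstream factors (SRF and its cofactors, CREB, ETS and MEF2 factors), *Srf* rose with insulin by log2 0.37 in IR and 0.44 in ∆CT cells (edgeR adjusted p = 0.00237 and 0.00144), and no other passed in any line. Of 15 other immediate-early genes, such as *Egr3* (log2 2.55 in IR and 3.18 in ∆CT cells) and *Zfp36* (2.90 and 2.89), 15 rose in IR, 15 in ∆CT, 9 in JMO, and 3 in K1030R cells, with median log2 changes of 2.30, 2.51, 0.52, and 0.20, where the medians over all genes were between -0.014 and 0.00032 and the shares of all genes that rose were 1.4%, 0.935%, 0.331%, and 0.11%, which also apply to the lists that follow. Of 7 tested glucocorticoid targets, a list that holds *Sgk1*, 3 rose in IR, 4 in ∆CT, 1 in JMO, and 1 in K1030R cells (medians 0.25, 0.27, 0.00, and -0.02). Of 8 early targets of TGF-beta, 3, 2, 1, and 0 rose in IR, ∆CT, JMO, and K1030R cells, and without insulin 7, 8, 5, and 6 were lower than in DKO in these lines, with medians of -0.56, -0.64, -0.43, and -0.53, against 24.1%, 22.9%, 17.4%, and 20.4% of all genes lower and medians over all genes from 0.0075 to 0.014.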

How the data were processed

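All 26 RNA-sequencing libraries of the 9 groups entered the fits. The 9 genes, the gene lists, and the tests were chosen with earlier results of these data known. Per the authors' methods, libraries were made from oligo-dT-selected RNA, and reverse-stranded single-end reads were trimmed (fastp), quantified on mouse transcripts of Ensembl release 98 (kallisto), and summarized per gene (tximport) (versions are not given in the sources used here). The deposited table holds these expected counts, neither scaled nor filtered, and 79.9% of them equal a whole number with a tolerance of 0, zeros included (58.3% of all values are 0, and 51.9% of those above 0 are whole). Reads of nearly identical sequence are divided between genes by this estimate.

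Counts were rounded, genes over 0.5 CPM in at least 4 libraries were kept (15402 of 52962), and libraries were scaled by TMM. The 9 group means were fitted together by quasi-likelihood with robust dispersion in edgeR 4.0.16 under R 4.3.3, with Benjamini-Hochberg adjustment over all genes tested and a threshold of 0.05. A minimum of 1.5-fold was tested with glmTreat. CPM uses TMM-scaled totals, except for the cell type markers and the filter, which use unscaled library totals. SE is the log2 change divided by the root of the F statistic, and likeness was computed on log2 CPM with a prior count of 2. The procedure was also run on counts simulated from its own fit, for insulin in IR cells only. That run does not cover the other comparisons, and its outcome is not reported here. Of the 9 genes, those that passed are named in each comparison, and of the lists some of those passing with the largest changes. Library totals from 17228982 to 24694828 counts limit *Nr4a3* most. Groups were taken from the sample titles, in which KD and CT were read as K1030R and ∆CT. Promoters were from RefSeq (GRCm38.p6) and transcripts from GENCODE M21 (GRCm38). Alternatives were RLE scaling, other count filters, DESeq2 1.42.0, limma 3.58.1 (voom and treat), a replicate block, fits of the compared groups alone, and omission of each library.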

Additional observations from a re-analysis of the deposited data

Results flagged for a closer look

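The insulin effect differed between receptor lines for 3 of the 9 genes, by the test of the difference itself. In K1030R relative to IR cells the log2 difference was -2.56 for *Nr4a1*, -1.13 for *Klf2*, and -0.41 for *Klf6*. In JMO relative to IR cells it was -2.30 for *Nr4a1*, -0.89 for *Klf2*, and -0.37 for *Klf6*. All 6 passed in all 19 alternative fits without a minimum fold, in which the *Nr4a1* difference ran from -2.70 to -2.43 in K1030R and from -2.45 to -2.21 in JMO cells. No test for single outlying libraries was run within groups of 2 or 3.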

How the results depend on the processing

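The 9 genes gave 67 significant results in 18 comparisons, of which 55 kept their significance in every alternative fit without a minimum fold, and none of the 67 changed sign. Those lost in some fit are named beside their values in the report. With a minimum of 1.5-fold in edgeR (glmTreat), the number of the 9 genes that passed was 2 with insulin in IR, 2 in ∆CT, and 0 in JMO cells, 2, 2, 3, and 1 in IR, K1030R, ∆CT, and JMO against DKO, 0, 0, and 1 in K1030R, ∆CT, and JMO against IR, 0 in JMO against K1030R, 0 in JMO against ∆CT, 0 in ∆CT against K1030R, and 1 for the difference of insulin effects between JMO and IR. With limma's treat these numbers were 2, 2, and 0, then 2, 2, 3, and 1, then 0, 0, and 1, then 0, 0, 0, and 1. For the difference of insulin effects between K1030R and IR, 2 of the 9 genes passed with glmTreat. Over all genes glmTreat passed 34, 0, 33, and 6 genes with insulin in IR, K1030R, ∆CT, and JMO cells and 1061, 814, 969, and 325 for these lines against DKO, and limma's treat passed 29, 0, 28, and 3, and 886, 681, 825, and 216. Without a filter on low counts 714, 178, 399, and 248 genes passed with insulin in IR, K1030R, ∆CT, and JMO cells, against 288, 24, 155, and 56. Of the 9 genes, 2 then passed in K1030R and 4 in JMO cells, and 1 each for the differences of insulin effects between ∆CT and IR and between JMO and K1030R, *Klf10* among those that passed with insulin in all 4 lines and *Myc* in K1030R and JMO cells (the cause was not tested). Fits of only the groups compared passed 129, 98, and 92 genes with insulin in IR, ∆CT, and JMO cells, with fewer libraries to estimate the spread. The 1 gene called between ∆CT and K1030R, *Nr4a2*, became 0 there and with DESeq2, and the 2 genes called in JMO cells became 1 with RLE scaling, with at least 10 counts in 4 libraries, and with limma voom.

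Leaving out 1 library at a time gave 131 to 1053 genes with insulin in IR (lowest without IR replicate 2, highest without IR replicate 3), 100 to 145 in ∆CT, 26 to 42 in JMO, and 10 to 18 in K1030R cells. Of the 9 genes, 0 to 2 passed in JMO cells with insulin, 0 to 1 between ∆CT and K1030R, and 5 to 8 between JMO and IR (lowest without IR replicate 1). Without a ∆CT library with insulin, the lone library left is assumed to vary like the other groups. The sign turned only for results that had not passed. For *Klf10* the log2 values ran from -0.175 to 0.389 for ∆CT against DKO, -0.106 to 0.458 for IR against DKO, -0.223 to 0.341 for K1030R against DKO, -0.00366 to 0.682 with insulin in JMO, and -0.756 to 0.0428 with insulin in K1030R cells. For *Nr4a1* they ran from -0.182 to 0.00709 for IR against DKO, -0.202 to 0.0673 with insulin in K1030R cells, and -0.0683 to 0.121 for the difference of insulin effects between ∆CT and IR. For *Nr4a2* they ran from -0.0735 to 0.0595 for ∆CT against DKO, -0.00376 to 0.229 with insulin in ∆CT, and -0.0889 to 0.0539 in JMO cells, and for *Nr4a3* from -0.665 to 0.0977 with insulin in IR cells. The difference of insulin effects between ∆CT and IR ran from -0.0284 to 0.0526 for *Klf6* and from -0.171 to 0.0276 for *Myc*, and that between JMO and K1030R from -0.0642 to 0.0773 for *Myc*.

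No pairing of the samples by replicate number was seen, and the labels do not say whether same-numbered dishes were handled together. Over 100 pairs of same-numbered libraries the median correlation of their deviations from group means was -0.0011, the highest was 0.0959, and 7 of 200 pairs with other numbers were over 0.1, so that not every library was closest to its own number. With the replicate number as a block 342, 26, 184, and 64 genes passed with insulin in IR, K1030R, ∆CT, and JMO cells. *Myc* then passed with insulin in JMO cells (log2 0.28, edgeR adjusted p = 0.00974) and in JMO against DKO cells (log2 -0.14, edgeR adjusted p = 0.0474), and no other call of the 9 genes changed. Depth limits *Nr4a3* most, with 5 to 28.8 counts a library.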
